A study of Mus musculus with 8 samples.

Results

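The genes described here make, sense or degrade the second messengers nitric oxide, cGMP and cAMP, or anchor the kinase that cAMP activates. Members were taken by gene symbol alone: Nos3, and every symbol starting with Pde and a digit, Adcy, Gucy, Prkg, Prkar, Prkac or Akap. They are 14 of the 2386 genes in the authors' deposited table, which compares liver macrophages of C57BL/6 mice, a common inbred strain, on a western diet (WD, 4 libraries) with those on a normal diet (ND, 4 libraries). Of the 14 genes in the authors' deposited table, 12 fell under WD at an adjusted p below 0.05, 1 rose, and 1 had a negative fold change that missed this limit. All 14 had already passed the limits for entry to that table, and 61.4% of all its genes were called lower. Of all 17531 genes the authors tested, 8.35% were lower and 3.0% higher by an adjusted p below 0.05 and a change of more than 2-fold. Among the 14 genes the largest falls in that table were those of Pde1c (6.48-fold), Nos3 (6.09-fold), Prkg1 (5.78-fold) and Gucy1b1 (5.35-fold), and the rise was that of Gucy2c (2.12-fold).

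All 8 libraries are labelled as liver macrophages from liver, with strain and diet as the only other labels. What the diets contained, how long they were fed, the age and sex of the mice and the way macrophages were isolated are absent from the sources used here. The header and name of the table write the groups as WDV and NDV; the V is not explained, and every value below takes them to be WD and ND. The table gives 1 mean normalized count, 1 log2 fold change (WD over ND), the standard error (SE) of that change and 1 adjusted p per gene. Values of single libraries were not analysed here, so each error is the authors' SE, and intervals are 95% intervals computed from it. Nothing in the labels ties each library to 1 mouse, although the series names 4 per diet, and the p-values measure only the spread between these libraries.

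Nitric oxide made by the endothelial synthase diffuses to neighbouring cells and activates soluble guanylyl cyclase, which makes cGMP; cGMP then activates protein kinase G and relaxes contractile cells. Adenylyl cyclases, switched on or off by G protein-coupled receptors, make cAMP, which activates protein kinase A and the exchange factors known as Epac. A-kinase anchoring proteins hold protein kinase A at particular sites in the cell, and phosphodiesterases end both signals by hydrolysing the cyclic nucleotide. In liver, the endothelial synthase is best known from the sinusoidal lining, and cGMP signalling from stellate and smooth muscle cells.

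Only genes past 2 limits are in the authors' deposited table, an unadjusted p below 0.05 and a change of more than 2-fold, so every member in it had to differ and its share of calls is a description. By the same symbols, the mouse annotation (GENCODE M21) holds 73 genes, 1 of them a pseudogene, and 59 of these are not in the table. The 12 lower genes are 16.4% of those 73, of which an unknown number was tested, so that share cannot be set directly against the 8.35% of tested genes that were called lower. Within the table, 61.4% of all listed genes were called lower. In the authors' deposited table the median log2 fold change was -1.80 for the 14 genes and -1.55 for all listed genes. Among genes with a negative fold change alone, the order was the opposite, with a median of -1.82 for the 13 members and -2.08 for all such genes of the authors' deposited table. Families were represented unevenly: 5 of 26 Pde genes, 3 of 9 Gucy genes, 2 of 12 Adcy genes, 2 of 16 Akap genes, 1 of 2 Prkg genes and none of the 7 genes of protein kinase A subunits (Prkar and Prkac, the pseudogene included) were listed. These counts go by symbol alone. Among the genes not listed, Adcyap1 and Adcyap1r1 encode a peptide and its receptor, and Pde4dip and Pde12 encode no cyclic nucleotide phosphodiesterase.

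**Figure D1:**
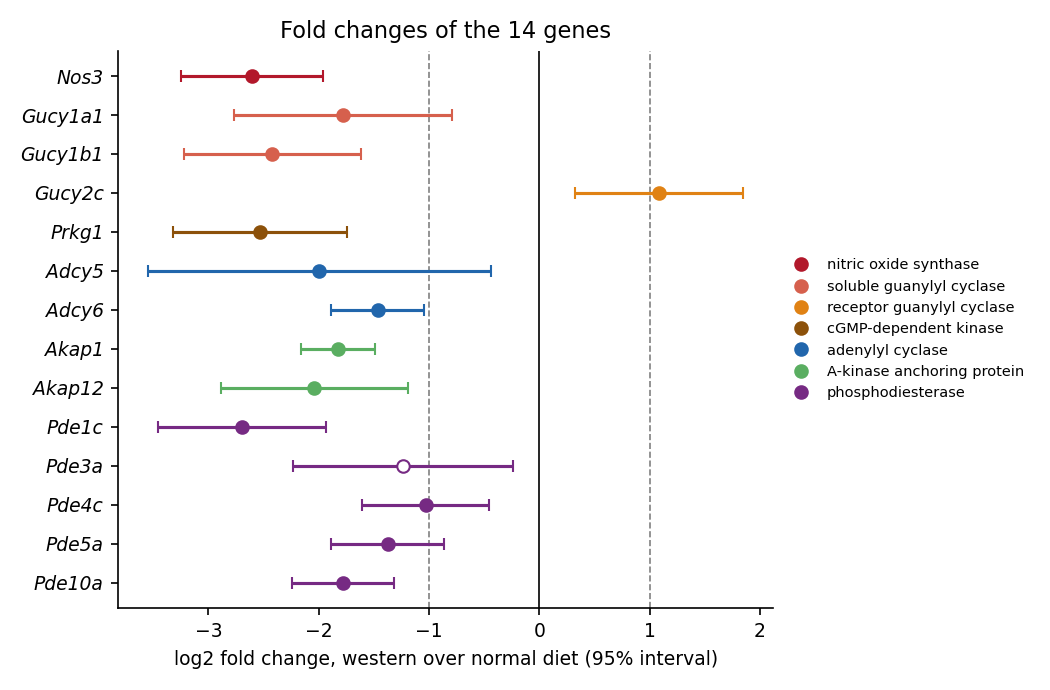
Log2 fold change (WD over ND, horizontal axis) of the 14 genes in the authors' deposited table, with 95% intervals from the authors' SE; colours give the role, the open symbol is the gene with an adjusted p above 0.05, and dashed lines mark a 2-fold change. Of the 14 genes, 13 lie left of 0 and Gucy2c lies right of it at 1.09.

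Nos3, the endothelial nitric oxide synthase (ENSMUSG00000028978, chromosome 5, 24364810 to 24384474, mm10), had a mean normalized count of 225 in the authors' deposited table. That mean and the fold change imply group means of 387 under ND and 63.6 under WD, if both groups weigh equally. The authors' deposited table gave it a log2 fold change of -2.61 ± 0.33 (SE), with an adjusted p of 6.05e-14 at rank 599 of the 17531 tested genes, and the interval ran from -3.25 to -1.96. Exons of Nos3 share 1040 bases with Gm15587, an antisense gene, which stood at a log2 fold change of -3.85 in the authors' deposited table with a mean count of 3.54, and 294 bases with Atg9b, which was not listed. Whether reads were counted by strand is not given in the sources used here, so reads of such overlapping pairs cannot be told apart.

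Transcripts of 4 genes whose products bear on nitric oxide synthases, through an inhibitor or by binding, were lower as well. Ddah1 and Ddah2, which break down the natural synthase inhibitor asymmetric dimethylarginine, had values of -2.84 ± 0.36 and -2.87 ± 0.21 in the authors' deposited table, falls of 7.15-fold and 7.32-fold. The synthase-binding proteins Nostrin, which draws the enzyme into vesicles, and Cav1, the caveolar coat protein that inhibits it, fell less, to -1.28 ± 0.19 and -1.16 ± 0.22 in the authors' deposited table. Implied group means were 418 and 172 for Nostrin and 342 and 153 for Cav1, under ND and WD in that order. Nos2, the inducible synthase of activated macrophages, went the other way, to 3.26 ± 1.02 in the authors' deposited table with an adjusted p of 0.00724, with implied means of 76.4 under ND and 732 under WD. Its SE was the widest of the pathway genes named here, and its interval began at 1.26. The cofactor genes Gch1 and Spr, the neuronal synthase gene Nos1 and the synthase-interacting gene Nosip were not listed.

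Both listed subunits of soluble guanylyl cyclase, the nitric oxide receptor, fell, and so did the kinase downstream of it. Gucy1b1, the haem-binding beta subunit (ENSMUSG00000028005, chromosome 3, 82032006 to 82074689), stood at -2.42 ± 0.41 in the authors' deposited table with an adjusted p of 5.21e-08, and its implied means were 50.3 under ND and 9.40 under WD. Gucy1a1, the alpha subunit (ENSMUSG00000033910, chromosome 3, 82092427 to 82145789), stood at -1.78 ± 0.50 in the authors' deposited table with an adjusted p of 0.00242, from implied means of 38.7 under ND to 11.3 under WD. The intervals of the subunits, -3.22 to -1.62 and -2.77 to -0.79, overlap, and the difference between them was not tested. Prkg1, cGMP-dependent protein kinase 1 (ENSMUSG00000052920, chromosome 19, 30564489 to 31765033), stood at -2.53 ± 0.40 in the authors' deposited table with an adjusted p of 6.34e-09, from an implied 36.6 under ND to 6.33 under WD. These are genes of low counts: the mean over all libraries was 29.9 for Gucy1b1, 25.0 for Gucy1a1 and 21.5 for Prkg1 in the authors' deposited table, against 37.5 for the median listed gene.

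The sequences just upstream of 3 members are shown because their RefSeq start (GRCm38.p6) lies within 22 bases of the start of the annotated gene. All 3 fell, but so did most members, 12 of the 14. No RefSeq promoter was found for Nos3, Adcy6, Gucy2c, Akap12 or Pde3a. Each run is the 250 bases before the start, 5′ to 3′ on the gene's strand; capitals mark CACCC, the core bound by Krüppel-like factors of endothelium, TGACG, a core of the cAMP response element, and GGGCGG, the GC box, or the reverse complement of any of these. The windows are chr3:82074712-82074961 (minus strand) for Gucy1b1, chr19:31765034-31765283 (minus strand) for Prkg1 and chr16:35154614-35154863 (plus strand) for Adcy5, an adenylyl cyclase described below.
Gucy1b1: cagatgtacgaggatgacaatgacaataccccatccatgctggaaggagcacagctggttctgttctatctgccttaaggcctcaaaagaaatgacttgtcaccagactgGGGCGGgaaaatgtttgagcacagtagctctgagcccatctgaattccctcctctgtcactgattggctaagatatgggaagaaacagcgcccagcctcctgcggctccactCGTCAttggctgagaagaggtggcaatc
Prkg1: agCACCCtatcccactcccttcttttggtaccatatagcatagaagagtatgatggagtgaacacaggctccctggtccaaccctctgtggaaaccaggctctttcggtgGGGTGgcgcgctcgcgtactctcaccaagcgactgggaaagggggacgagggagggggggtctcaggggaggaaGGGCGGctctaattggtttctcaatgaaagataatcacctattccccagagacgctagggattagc
Adcy5: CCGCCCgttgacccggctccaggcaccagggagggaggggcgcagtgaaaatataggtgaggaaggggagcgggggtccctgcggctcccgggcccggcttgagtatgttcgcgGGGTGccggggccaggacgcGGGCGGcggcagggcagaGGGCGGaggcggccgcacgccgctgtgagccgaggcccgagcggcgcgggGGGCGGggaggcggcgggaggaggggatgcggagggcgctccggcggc
TGACG was found once, on the opposite strand of Gucy1b1, 28 bases before its start, and not in the Prkg1 or Adcy5 windows. Prkg1 held 2 CACCC matches and Adcy5 held 1, while Gucy1b1 held none. GC boxes numbered 4 in Adcy5, whose window was 78.0% G and C, and 1 each in Gucy1b1 (51.2%) and Prkg1 (55.2%), beside a median of 52.0% over all promoters. Of 27025 promoters of the same length, taken at the first RefSeq start of each gene, 51.3% held CACCC, 17.9% TGACG and 32.9% GGGCGG. RefSeq promoters were found for 9 of the 14 genes, and 7 of these had a window free of their own exons: 6 of the 7 held CACCC, 1 held TGACG and 4 held GGGCGG. The windows of Akap1, Pde1c and Pde10a, which all held CACCC, lie 13074, 199469 and 324613 bases from the annotated gene start. The 27025 promoters were not selected to be free of exons, so they are not like windows. The other motifs searched on both strands were ACAAT, the core bound by SOX factors, in 3 of the 7 and 28.3% of all promoters, CCGGAA, a core bound by ETS factors, in 0 of the 7 and 12.2%, and TATAAA, the TATA box, in 0 of the 7 and 3504 of the 27025 promoters. A match describes letters and is not evidence of binding.

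Receptor guanylyl cyclases, which make cGMP in answer to peptides, moved in both directions. Gucy2c, the receptor for the gut peptides guanylin and uroguanylin (ENSMUSG00000042638, chromosome 6, 136697284 to 136781765), was the single member that rose, to a log2 fold change of 1.09 ± 0.39 in the authors' deposited table (adjusted p 0.0219). Its implied means were 13.8 under ND and 29.2 under WD, and its interval ran from 0.32 to 1.85. Npr1 and Npr2, the cyclase receptors for natriuretic peptides, are outside the symbol rule and stood at -3.47 ± 0.23 and -2.62 ± 0.26 in the authors' deposited table, falls of 11.1-fold and 6.16-fold. Npr1 had implied means of 1856 under ND and 168 under WD. Npr3, the clearance receptor that removes these peptides, stood at -1.92 ± 0.56 in the authors' deposited table, at a mean count of 11.6. The natriuretic peptide genes Nppa, Nppb and Nppc, the guanylin genes Guca2a and Guca2b and the kinase substrate genes Vasp, Mrvi1 and Itpr1 were not listed. Of the 25 genes in the list for nitric oxide and cGMP outside the symbol rule, 7 fell, 1 rose and 17 were not listed, beside 8.35% of tested genes called lower and 3.0% called higher.

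**Figure D2:**
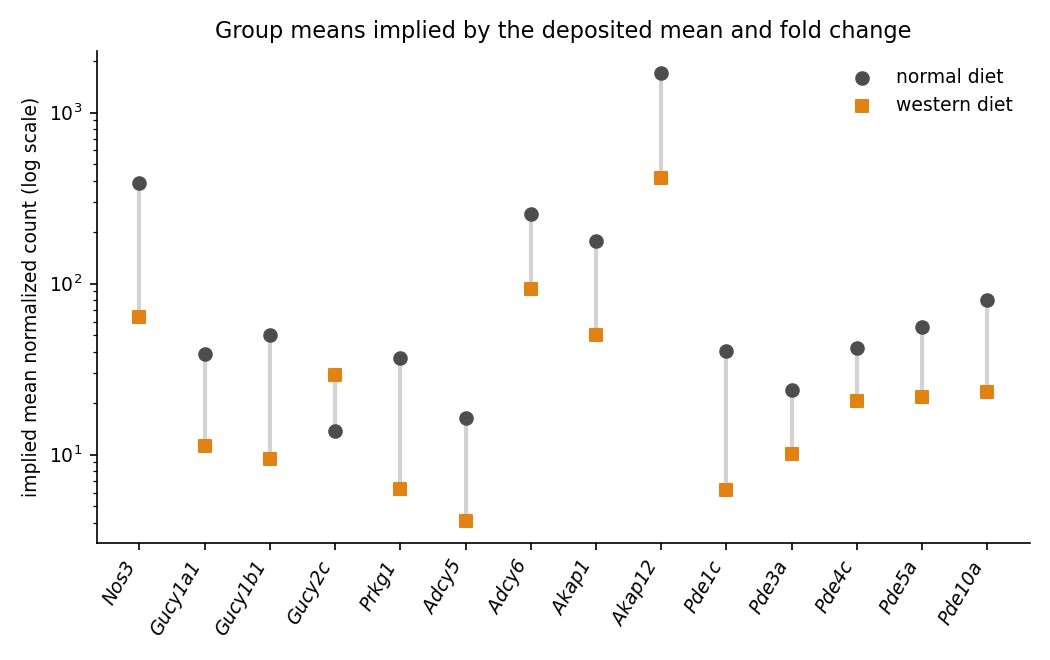
Group means of the normalized count (log scale) implied for the 14 genes by the mean over all libraries and the fold change in the authors' deposited table; circles are ND, squares are WD, and no spread between libraries is available. Akap12 has the highest implied level in both groups, 1699 under ND and 414 under WD, and Gucy2c alone has the square above the circle.

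Of the adenylyl cyclases, Adcy6 and Adcy5, 2 closely related isoforms inhibited by calcium, were lower under WD. Adcy6 (ENSMUSG00000022994, chromosome 15, 98589973 to 98610076) stood at -1.46 ± 0.22 in the authors' deposited table with an adjusted p of 2.12e-10, and its implied means were 256 under ND and 92.7 under WD. Its exons share 605 bases with Gm29331, an antisense gene that was not listed. Adcy5 (ENSMUSG00000022840, chromosome 16, 35154877 to 35305738) stood at -1.99 ± 0.79 in the authors' deposited table with an adjusted p of 0.0424, just inside the limit. Adcy5 also had the lowest mean count of the 14 genes in the authors' deposited table, 10.2, with implied means of 16.3 and 4.10, and its interval from -3.55 to -0.44 was the widest. Among cyclases that were not listed was Adcy7, which is known from blood and immune cells.

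Listed genes of receptors that stimulate or inhibit these cyclases, and of their accessory subunits, were lower in 6 of 7 cases. Among all listed genes, 61.4% were called lower. Calcrl and Ramp2, which together form the adrenomedullin receptor, stood at -2.76 ± 0.22 and -3.35 ± 0.26 in the authors' deposited table, falls of 6.77-fold and 10.2-fold. Vipr1, a receptor for vasoactive intestinal peptide, Pth1r, the parathyroid hormone receptor, and S1pr1, a Gi-coupled receptor for sphingosine 1-phosphate, stood at -1.79 ± 0.35, -2.54 ± 0.51 and -1.82 ± 0.18 in the authors' deposited table. Adra2b, a Gi-coupled adrenergic receptor, stood at -2.04 ± 0.64 in the authors' deposited table. Ptger4, a Gs-coupled receptor for prostaglandin E2 that macrophages use, rose 2.37-fold in the authors' deposited table (1.25 ± 0.18, adjusted p 4.39e-11), from an implied 342 under ND to 812 under WD. In this list of 29 receptor genes, 6 fell, 1 rose and 22 were not listed, against the same background of 8.35% lower and 3.0% higher. Of 15 G protein and regulator genes, with that background again, Gnao1 (-2.22 ± 0.48), Rgs3 (-1.64 ± 0.21) and Rgs5 (-1.68 ± 0.56) fell and Rgs16 rose (1.58 ± 0.42) in the authors' deposited table. Gnai1, an inhibitory alpha subunit, stood at -1.26 ± 0.55 in the authors' deposited table with an adjusted p of 0.0695, and Gnas, the stimulatory subunit, was not listed.

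The anchoring proteins Akap1 and Akap12 fell while no subunit of the kinase they hold was listed. Akap1, which tethers protein kinase A to the outer mitochondrial membrane (ENSMUSG00000018428, chromosome 11, 88830792 to 88864586), had the smallest p of all 14 genes, at rank 268 of the 17531 tested genes. The authors' deposited table gave it -1.82 ± 0.17 on the log2 scale (adjusted p 1.79e-24), with implied means of 178 under ND and 50.2 under WD. Akap12, the scaffold also called gravin (ENSMUSG00000038587, chromosome 10, 4266380 to 4359470), had the highest mean count of the 14 genes in the authors' deposited table, 1057. The authors' deposited table put its fall at 4.11-fold (log2 -2.04 ± 0.43, adjusted p 2.43e-05). Despite its count, the SE of Akap12 ranked 13 from the top among the 221 listed genes within 2-fold of its mean count, whose median SE was 0.21. For Akap1, 454 of the 496 listed genes within 2-fold of its mean count, itself included, had an SE at least as large.

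**Figure D3:**
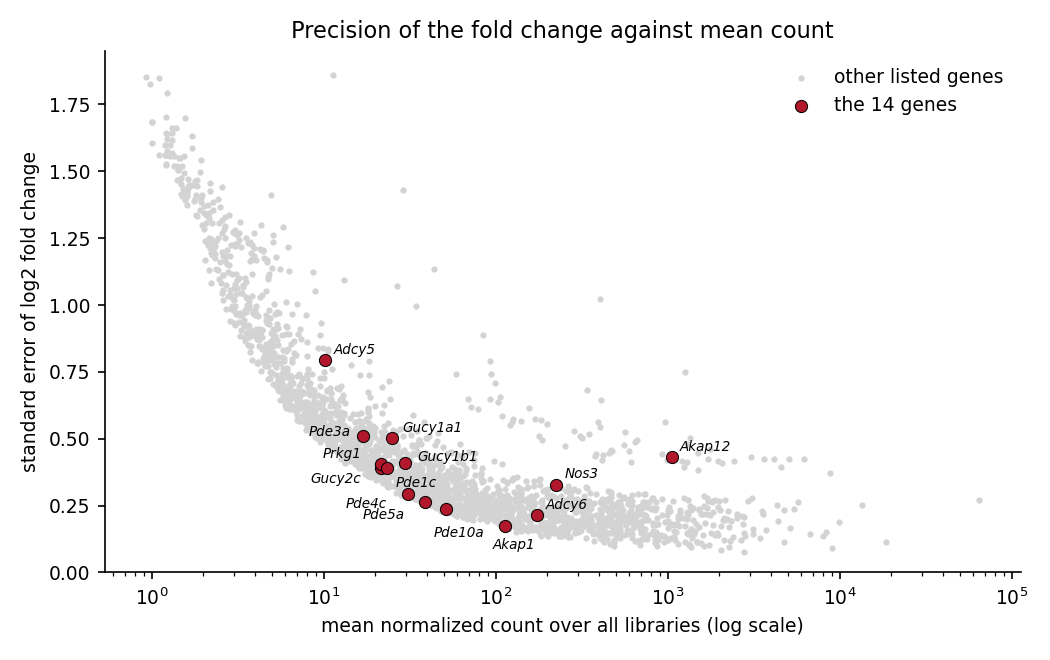
SE of the log2 fold change against the mean normalized count (log scale) for all genes in the authors' deposited table, with the 14 genes in red. Akap12, at a mean count of 1057 and an SE of 0.43, lies above most genes of its count, and Adcy5, at a mean count of 10.2, has the largest SE of the 14, 0.79.

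The list of cAMP effectors other than protein kinase A held 3 genes that fell, of which Rapgef3 and Hcn4 encode proteins that bind the messenger. Rapgef3, which encodes Epac1, stood at -2.84 ± 0.22 in the authors' deposited table with an adjusted p of 5.96e-35, from an implied 354 under ND to 49.5 under WD. Rapgef5, an exchange factor of the same family that is not known as a cAMP sensor, stood at -2.24 ± 0.23 in the authors' deposited table. Hcn4, a channel gated by cyclic nucleotides, stood at -3.02 ± 0.78 in the authors' deposited table at a mean count of 5.62. In this list, 3 of 14 genes fell, none rose and 11 were not listed, beside 8.35% of tested genes called lower. Of 20 genes for protein kinase A inhibitors and for transcription factors of the CREB pathway and their targets, 1 was listed: Nr4a3, an early response gene that cAMP can induce, rose to 1.10 ± 0.22 in the authors' deposited table. That 1 of 20 is near the 3.0% of all tested genes called higher.

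Phosphodiesterases with different substrates were lower by different amounts. Pde1c, which hydrolyses both cyclic nucleotides under calcium and calmodulin (ENSMUSG00000004347, chromosome 6, 56069804 to 56569103), had the largest fall of the 14 genes, -2.70 ± 0.39 in the authors' deposited table (adjusted p 9.33e-11), with implied means of 40.5 under ND and 6.25 under WD. Pde10a, a dual-substrate enzyme best known from the striatum (ENSMUSG00000023868, chromosome 17, 8525372 to 8986648), stood at -1.78 ± 0.24 in the authors' deposited table (adjusted p 1.08e-12), from an implied 79.7 to 23.2. Pde5a, the cGMP-specific enzyme that sildenafil inhibits (ENSMUSG00000053965, chromosome 3, 122728947 to 122859374), stood at -1.37 ± 0.26 in the authors' deposited table (adjusted p 1.92e-06), from an implied 56.1 to 21.6. Thus 3 enzymes able to hydrolyse cGMP were lower in the same comparison as the cyclase subunits and kinase of that messenger. The interval of Pde5a, -1.89 to -0.86, overlaps those of Gucy1b1 and Gucy1a1.

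The cAMP-specific enzyme Pde4c (ENSMUSG00000031842, chromosome 8, 70723720 to 70751186) had the smallest called change, -1.03 ± 0.29 in the authors' deposited table (adjusted p 0.00277), just beyond the 2-fold limit of the table. Implied means of Pde4c were 41.9 under ND and 20.5 under WD. Pde3a, a cAMP-hydrolysing enzyme that cGMP inhibits (ENSMUSG00000041741, chromosome 6, 141249269 to 141507448), had a value of -1.24 ± 0.51 in the authors' deposited table and an adjusted p of 0.0509, just outside the limit for a call. Its exons share 741 bases with the antisense gene Gm28523, which was not listed. Pde4b and Pde4d, which are prominent in immune cells, Pde2a and Pde3b were among the 21 Pde genes not listed. Abcc4, a transporter that exports cyclic nucleotides, stood at -1.40 ± 0.20 in the authors' deposited table, from an implied 520 under ND to 196 under WD, and Abcc5 was not listed.

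**Figure D4:**
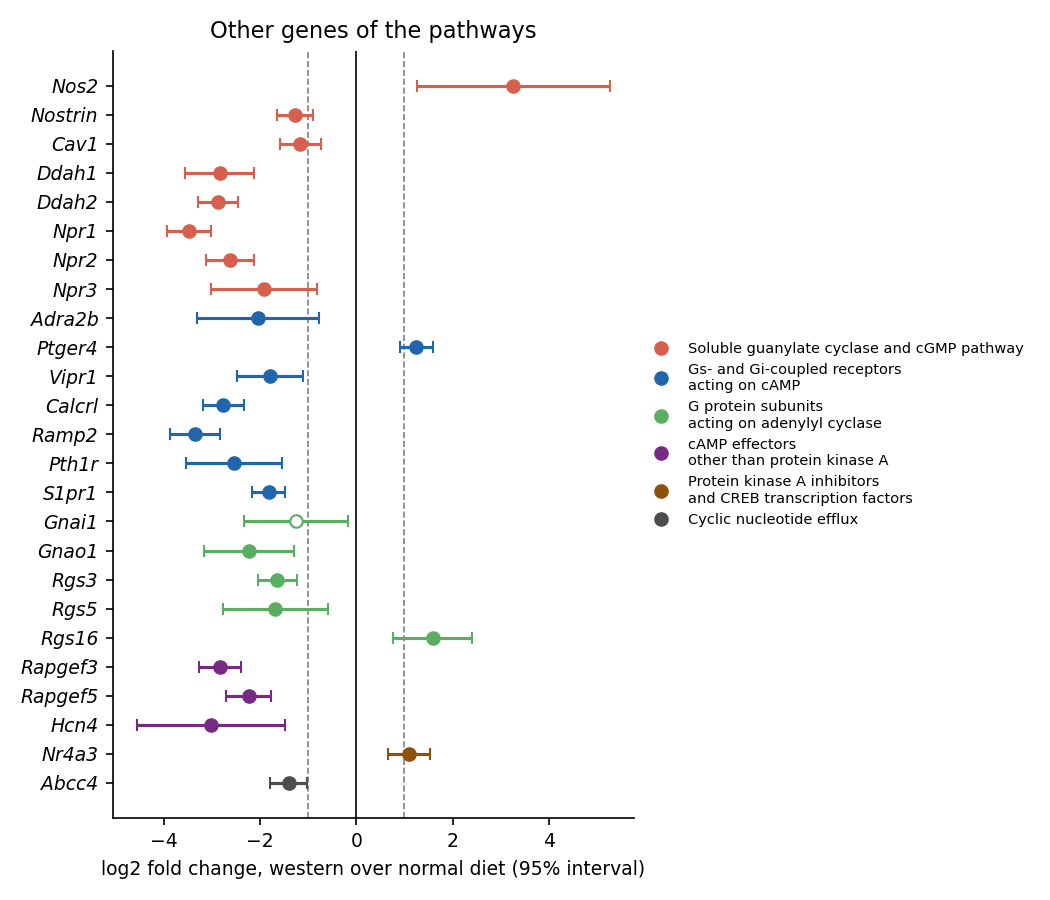
Log2 fold change (WD over ND, horizontal axis, with 95% intervals) of the 25 listed genes of 6 pathway lists outside the symbol rule, coloured by list, from the authors' deposited table; the open symbol has an adjusted p above 0.05 and dashed lines mark a 2-fold change. The 4 genes right of 0 are Nos2, Ptger4, Rgs16 and Nr4a3.

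Across the 6 pathway lists outside the symbol rule, 20 of 105 genes fell, 4 rose, 1 (Gnai1) was listed without passing and 80 were not listed, beside 8.35% of all tested genes called lower and 3.0% called higher; the 4 of 105 that rose are near that background, and how many of the 105 were tested is not known. The median of their listed genes in the authors' deposited table was -1.92 on the log2 scale. The lists were drawn up with earlier results of these data known, so their counts do not stand as independent evidence of direction.

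The 14 genes differed widely in level. Per kilobase of annotated exon, a scale that allows comparison between genes, the mean normalized count ran from 1.16 for Pde1c to 164 for Akap12. Nos3 came second at 54.5, followed by Akap1 at 26.0 and Adcy6 at 25.7, and the other 10 genes lay at or below 7.60. Large falls were found at both ends of this scale: beside Nos3, the low genes Pde1c and Prkg1, which the authors' deposited table put at -2.70 and -2.53 on the log2 scale, had 1.16 and 1.98 counts per kilobase. Exon length here joins all annotated isoforms, so the level of a gene with many isoforms, such as Pde1c with 20.1 kilobases, is understated.

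**Figure D5:**
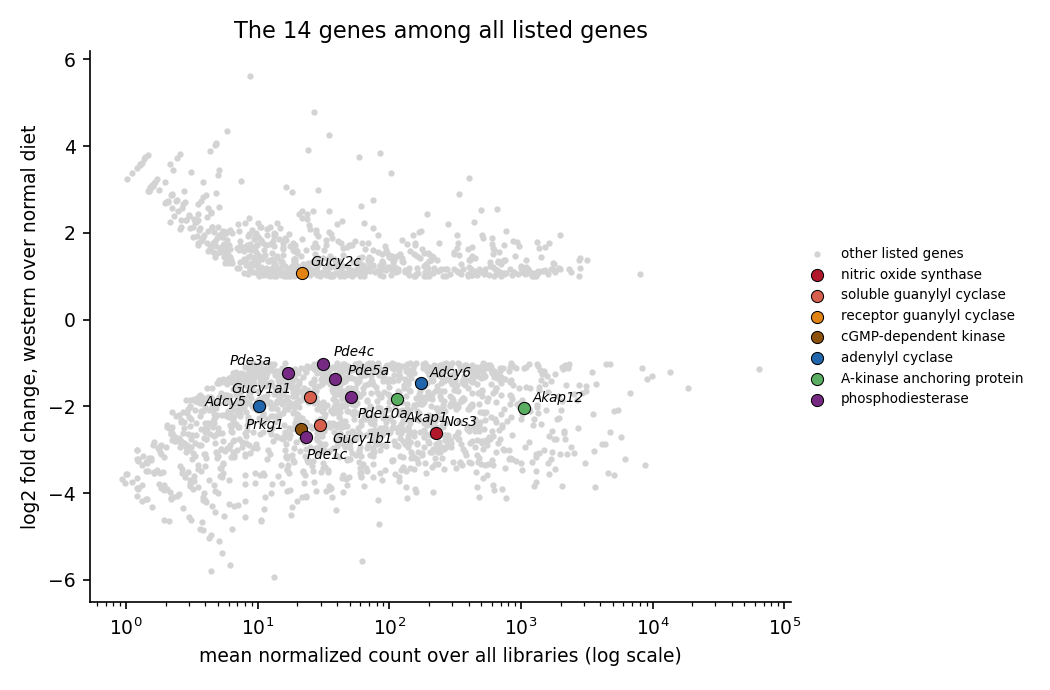
Log2 fold change (WD over ND) against the mean normalized count (log scale) for all genes in the authors' deposited table in grey, with the 14 genes coloured by role; the empty band around 0 is the 2-fold limit of the table. The 13 genes with negative fold changes lie between -1.03 and -2.70, above the lowest listed genes, and 10 of the 14 genes have mean counts under 100.

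Markers of liver cell types moved in the same comparison, in which 8.35% of all tested genes were called lower and 3.0% higher. All 15 sinusoidal endothelial markers fell in the authors' deposited table (log2 -3.85 to -1.12), at mean counts from 1297 to 9034, with Fcgr2b, Mrc1 and Ptprb the most abundant. Macrophages also express Fcgr2b and Mrc1, which had the smallest falls of the 15, -1.38 and -1.12 in the authors' deposited table. General endothelial markers fell in 12 of 15 cases in the authors' deposited table (-4.12 to -1.28), and Vwf, Klf2 and Klf4 were not listed; Nostrin is in this list and in the nitric oxide list. Stellate and smooth muscle markers fell in 7 of 15 cases in the authors' deposited table (-2.19 to -1.18), Rgs5 among them, with Acta2, Tagln and Myh11 not listed. T and NK cell markers rose in 8 of 15 cases and hepatocyte markers in 3 of 15. Those 3 were Ass1, Apob and Cyp3a11, at mean counts of 1009, 157 and 23.9, while Alb, Apoa1 and Ttr were not listed. None of 15 Kupffer cell and macrophage markers was listed, so these markers gave no check of the labelled cell type by level. Listed genes outside these markers were not used for such a check. The part of these cell types in the changes of the 14 genes was not tested, and in bulk RNA fewer cells of a type and less RNA per cell cannot be told apart.

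The count of lower genes depended on the limits used. At an adjusted p below 0.01, 11 of the 14 genes were lower, without Adcy5. By that limit 1293 of the 2386 listed genes were lower, which are 7.38% of tested genes. With the interval wholly beyond 2-fold, 8 of the 14 genes were lower (Nos3, Gucy1b1, Prkg1, Adcy6, Akap1, Akap12, Pde1c and Pde10a). By that rule 949 of the 2386 listed genes were lower, which are 5.41% of tested genes. Gucy2c was no longer called higher under either rule. With a mean count of at least 100, all 4 members left (Nos3, Adcy6, Akap1 and Akap12) were lower, beside 75.5% of the 803 listed genes at such counts. At the unadjusted p of the table itself, 13 of 14 were lower, beside 70.4% of listed genes.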

How the data were processed

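RNA of 8 libraries was compared by diet (4 WD, 4 ND), each grouped by its diet label. Build mm10 and, with no role stated, the aligners STAR and HISAT2, the counters StringTie and featureCounts, STAR-Fusion, DESeq and edgeR stand in the submitters' processing notes. Per the file headers, the authors deposited a signal (the mean normalized count), a log2 fold change with its SE, a test score (fold change over SE) and p-values, plain and adjusted, per gene. Count models could not be refitted and depth per library is unknown. Every one of the 2386 identifiers matched GENCODE M21 (GRCm38), which gave positions and exon lengths. The number of tested genes, 17531, was recovered as the whole number that made p times that number over adjusted p whole (tolerance 0.02) for 91.0% of genes; on a made-up table of 15000 genes the step returned 15000. The 77 genes without an adjusted p were not called. Implied group means solve the deposited mean and fold change for equal group sizes and an unshrunken fold change. Named genes were all members and all listed genes of the pathway lists; markers are given as counts, ranges and up to 3 of the most abundant. Members and lists were chosen with earlier results of these data known. Analyses used Python 3.11.15 with pandas 2.3.3.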

Additional observations from a re-analysis of the deposited data

How the results depend on the processing

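Alternatives were an adjusted p below 0.01, the unadjusted p of the table, an interval wholly beyond 2-fold and a mean count of at least 100. With a mean count of at least 100, 4 of the 14 genes, 13 pathway genes outside the symbol rule and 606 of all listed genes were lower, instead of 12, 20 and 1464; fewer genes are considered under this rule. In the same setting 0 of the 14 and 190 of all genes were higher, instead of 1 and 526. With the interval beyond 2-fold, 949 of all genes were lower and 114 higher, and 0 of the 14 genes and 1 pathway gene, instead of 4, were higher. At an adjusted p below 0.01, 0 of the 14 genes were higher, beside 1 at the unadjusted p, all from the authors' own test. The other counts stayed within 1.5 times. Leaving out each library in turn was not run, because the table holds no value per library. No paired analysis was possible because the labels pair no libraries and the table holds one comparison. Depth per library is unknown; 10 members had mean counts under 100.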

Other observations

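A small set of abundant genes had an SE near that of Akap12, in a band that was set after the values were seen. Of 146 genes with a mean count of at least 1000 in the authors' deposited table, 13 had an SE between 0.40 and 0.45. On either side of this band, 4 had one from 0.30 to 0.40 and 4 had one of 0.45 or more, and the median SE was 0.20. Besides Akap12 (0.43), the 13 genes include Kdr (0.42), Ptprb (0.42), Oit3 (0.43), Flt4 (0.42), Tek (0.42), Ehd3 (0.42), Gpr182 (0.41) and Robo4 (0.41), all endothelial markers, in the authors' deposited table. Of the 13 genes, 12 were lower under WD and 1, the interferon-induced gene Gbp2, was higher. Of 21 endothelial markers with such counts, 8 were in this band, and the lowest SE among the 21 was 0.091. The spread of single libraries behind these errors was not analysed here, and whether the errors have a common source was not tested.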
